A study of Mus musculus with 6 samples.

Results

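The CIDE proteins, the perilipins and the regulators of droplet lipolysis coat, enlarge and empty the lipid droplets in which a liver cell stores triglyceride. Their transcripts were followed here in RNA sequencing of mouse hepatic tissue, with 3 libraries from hepatic FTO knockout mice beside 3 from wild type controls. The 10 genes were taken by symbol from the 25690 rows of the deposited table: Cidea, Cideb and Cidec of the CIDE family, Plin1 to Plin5 of the perilipin family, and Pnpla2 and G0s2 of droplet lipolysis. FTO is an enzyme that removes the methyl group of N6-methyladenosine from RNA. No agent or diet is given for any library, and the labels do not say the strain, sex or age of the mice, the driver of the deletion or whether a library came from a single animal. The p-values therefore measure the spread between these libraries, which may be technical.

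CIDE proteins sit where droplets touch and pass lipid from the smaller to the larger one, so that droplets grow. Cideb is the family member usual in hepatocytes, while Cidea and Cidec are best known from fat cells and are low in lean liver, rising in fatty liver with the nuclear receptor PPAR gamma. Perilipins coat the droplet and gate the access of lipases. Plin2 is the main coat protein of liver droplets, Plin5 ties droplets to mitochondria, and Plin1 belongs to adipocytes. Pnpla2 (adipose triglyceride lipase) makes the opening cut in stored triglyceride, and G0s2 binds and inhibits it.

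Levels are given in FPKM, in which fragment numbers are divided by transcript length and library size, so genes can be compared with each other. Changes are knockout minus wild type on log2(FPKM + 1), a scale that understates the change of low genes, and a gene was called at a limma adjusted p under 0.05 over all 10405 genes whose mean reached 1 FPKM. Of the 10 genes 9 passed that filter, and Plin1 did not. The inferred depth was about 34100000 to 42500000 fragments per library. At the lowest depth, 1 FPKM corresponded to about 29.7 fragments for the short G0s2 transcript and about 196.5 for the long Plin4 transcript. The hepatocyte genes Ttr, Apoa1 and Cps1 had at least 237.8 FPKM in each of the 6 libraries, while for Alb the table lists 0 for wild type replicate 1 and for knockout replicate 3 and 25046 FPKM or more elsewhere. Of 10 hepatocyte markers 0 were called. At an unadjusted p under 0.05 from limma, 3 were higher in the knockout (Apoa1, Cps1 and Hnf4a) and 0 lower, beside 8.65% and 10% of all tested genes. Fto itself was at 6.67, 6.02 and 6.396 FPKM across wild type replicates 1 to 3 and at 1.79, 3.83 and 2.66 FPKM across knockout replicates 1 to 3 (adjusted p 0.0386). That call was lost when a single library was left out, for wild type replicate 1 (adjusted p 0.0804), wild type replicate 2 (0.113), knockout replicate 1 (0.0662) and knockout replicate 3 (0.146), and also when low genes were not filtered out (0.0975).

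Of the 9 tested genes, 3 fell in the knockout (Cidea, Cidec and Plin4), 0 rose and 6 were not called. Among all tested genes 2.76% were called, 1.65% lower and 1.11% higher. At an unadjusted p under 0.05, 4 of the 9 were lower and 0 higher, beside 10% and 8.65% of all tested genes. In 4 of the 9 all knockout libraries lay below all wild type libraries, as they did for 13.0% of all tested genes, and the fourth of these was Plin2. The median log2 change of the 9 genes was -0.36, beside 0 over all tested genes. The 3 calls did not follow abundance: the most abundant genes of the set, Plin2, G0s2 and Cideb, were among those not called.

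**Figure D1:**
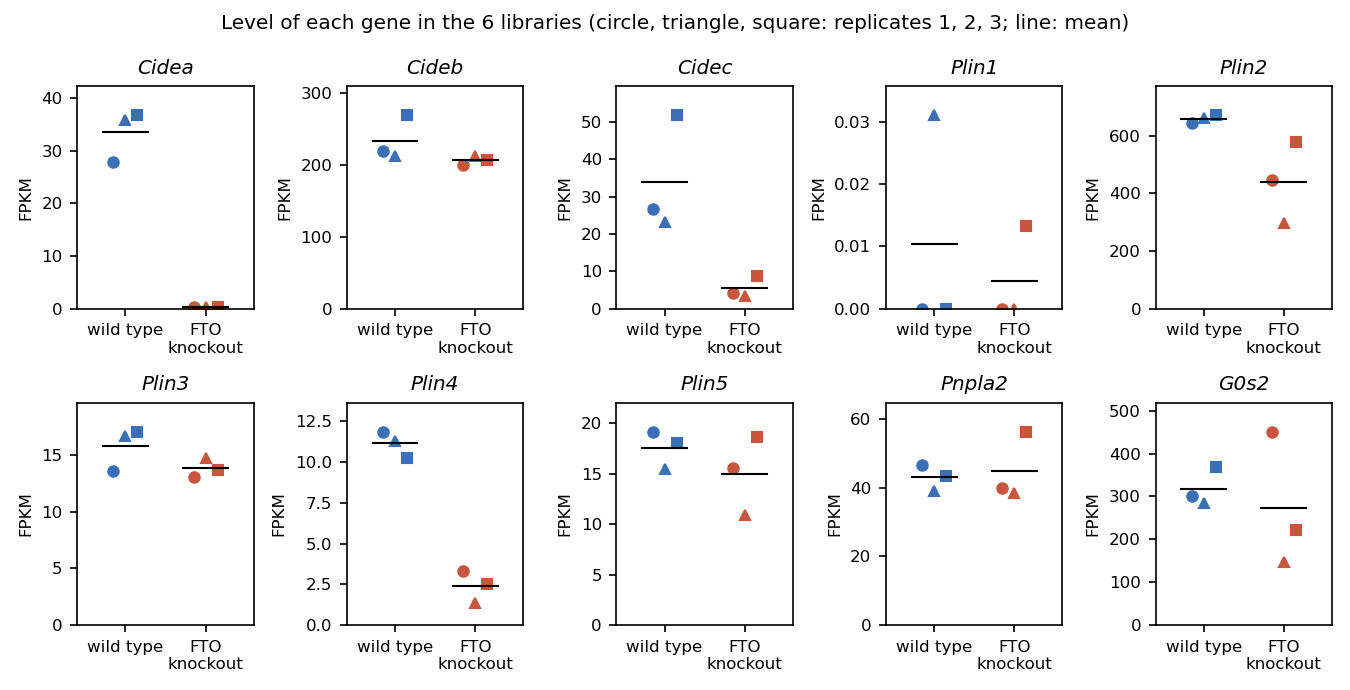
Level of each of the 10 genes in FPKM (vertical axes, each from 0) in wild type and FTO knockout libraries, with symbols for replicates 1, 2 and 3 and a line at the mean. Knockout libraries lie below wild type without overlap for Cidea, Cidec, Plin2 and Plin4, and Plin1 is near 0 in both groups.

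Cidea had the largest change of the set. It stood at 27.8, 35.8 and 36.7 FPKM across wild type replicates 1 to 3 and at 0.199, 0.318 and 0.254 FPKM across knockout replicates 1 to 3. The 3 knockout libraries lay close together and far below every wild type library. The means were 33.4 ± 4.91 and 0.257 ± 0.0596 FPKM (SD, n = 3 each), a 130.0-fold difference, with a log2 change of -4.77 (95% interval -5.07 to -4.46, adjusted p 6.65e-06). At the inferred depth the knockout values rest on about 7.7 to 12.1 fragments per library and the wild type values on about 1076 to 1459, so the size of the fold is set by very few knockout fragments. The wild type mean lay above that of 81.3% of tested genes and the knockout mean above 0.2%. The filter kept low genes out of the tested set, and Cidea passed it only by its wild type level. A knockout rank near the bottom of that set follows from the filter, so the 0.2% adds nothing to the levels above.

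Cidea has a single annotated transcript, on chromosome 18 from 67343604 to 67367785 (mm10, plus strand), and the opposite strand of the same locus holds the noncoding RNA B430212C06Rik. No exon of that RNA overlaps an exon of Cidea. It was chosen for its place after its values were seen. B430212C06Rik was at 0.639, 1.12 and 1.33 FPKM for wild type, against 0.0458, 0.152 and 0.0463 FPKM for knockout replicates 1 to 3. These groups did not overlap either. Its mean was under the filter, and with no filter on low values its log2 change was -0.89 with an adjusted p of 0.0536, outside the threshold. The sources used here do not say whether reads were counted by strand. Unspliced reads of either gene that fall within an exon of the other therefore cannot be told apart from that exon's own reads. The exons themselves lie apart, so spliced reads of the 2 genes differ in position.

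Cidec, the fat-cell paralogue, also fell. It was at 26.7, 23.3 and 51.9 FPKM across wild type replicates 1 to 3 and at 4.23, 3.39 and 8.79 FPKM across knockout replicates 1 to 3. The third replicate was the highest of each group, and the highest knockout library still lay below the lowest wild type library. The change was 6.21-fold, with a log2 change of -2.44 (SE 0.37, adjusted p 0.0172). The call was lost without knockout replicate 1 (adjusted p 0.0700), without knockout replicate 2 (adjusted p 0.0533) and with no filter on low values (0.0650).

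Cideb, the hepatocyte form and the most abundant CIDE transcript, did not pass the test. It was at 220.0, 212 and 269.8 FPKM for wild type, against 200.2, 213 and 207 FPKM for knockout replicates 1 to 3. The groups overlapped, and the log2 change was -0.17 (95% interval -0.48 to 0.14, adjusted p 0.548). Exons of Cideb overlap exons of Nop9 on the opposite strand, but Nop9 stood at 3.48 to 4.74 FPKM in the 6 libraries, far below Cideb.

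The composition of the CIDE family also differed. Cidea held 10.1%, 13.2% and 10.3% of the summed CIDE level across wild type replicates 1 to 3 and 0.0974%, 0.147% and 0.118% across knockout replicates 1 to 3. Cidec held 8.58% to 14.5% in wild type and 1.56% to 4.07% in knockout. Cideb held the remainder, 75.3% to 80.1% in wild type and 95.8% to 98.3% in knockout. The summed level was 275, 271 and 358 FPKM for wild type, against 205, 216 and 216 FPKM for knockout replicates 1 to 3. Within a library, the log2 ratio of Cidea to Cideb was -2.81 ± 0.22 in wild type and -9.68 ± 0.29 in knockout (SD, n = 3 each), and that of Cidec to Cideb was -2.87 ± 0.43 and -5.37 ± 0.73. Both ratios separated the groups without overlap, with an exact two-sided permutation p of 0.1, the smallest that 3 against 3 libraries can give (0.125 adjusted over the 5 ratios computed). Each sets a called gene against Cideb, which was not called. The shares and ratios thus restate the levels above and are not further support.

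**Figure D2:**
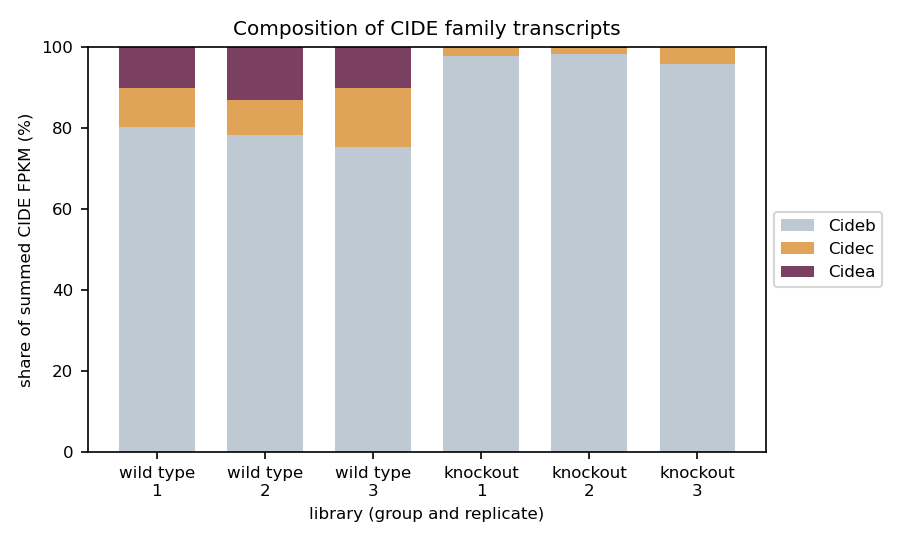
Share of each CIDE gene in the summed CIDE level in FPKM (vertical axis, percent) for each library (horizontal axis). Cidea and Cidec together form the upper part of the 3 wild type bars, and Cideb holds 95.8% to 98.3% of the 3 knockout bars.

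The sequences before the start sites of Cidec and Cideb are shown because they are paralogues of which Cidec passed the test and Cideb did not. They come from RefSeq (GRCm38.p6, the assembly of mm10), run 5′ to 3′ on the gene's strand and end before the annotated exons. Cidec has 2 start sites in that table, at chr6:113435761-113436010 and chr6:113434765-113435014 (minus strand), and the Cideb window is chr14:55758459-55758674 (minus strand). Capitals mark the nuclear receptor half-site AGGTCA, the E-box CACGTG, the TATAAA box and the CCAAT box, on either strand.
Cidec start site 1: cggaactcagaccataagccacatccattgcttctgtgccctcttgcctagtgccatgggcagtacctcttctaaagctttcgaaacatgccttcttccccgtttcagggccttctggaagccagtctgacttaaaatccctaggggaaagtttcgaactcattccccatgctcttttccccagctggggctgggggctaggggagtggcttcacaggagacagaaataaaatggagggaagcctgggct
Cidec start site 2: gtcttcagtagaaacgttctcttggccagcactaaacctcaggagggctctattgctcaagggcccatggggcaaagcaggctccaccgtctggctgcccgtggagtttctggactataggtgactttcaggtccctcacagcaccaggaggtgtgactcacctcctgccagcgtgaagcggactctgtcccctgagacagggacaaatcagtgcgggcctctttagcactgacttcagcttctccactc
Cideb: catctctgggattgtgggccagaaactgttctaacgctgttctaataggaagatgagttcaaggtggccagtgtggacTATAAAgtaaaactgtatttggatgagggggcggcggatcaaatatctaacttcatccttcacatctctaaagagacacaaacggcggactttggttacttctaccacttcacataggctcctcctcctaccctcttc
In the 250 bases before each start, neither Cidec window held any of the motifs searched, which besides these 4 were the direct repeat of AGGTCA with 1 base between the copies (the PPAR site), the same repeat of AGGNCA and the CRE TGACGTCA. The Cideb window held TATAAA at positions -172 to -167, counted back from the start. Of 32817 windows of this length in the table, 12.4% held TATAAA, 14% AGGTCA, 6.02% CACGTG, 33.8% CCAAT, 1.55% TGACGTCA, 0.338% the AGGNCA repeat and 0.0335% the AGGTCA repeat, which overlaps the single AGGTCA by its letters.

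Plin4 was the perilipin that fell. This long, repeat-rich perilipin, known from fat cells and muscle, was at 11.9, 11.3 and 10.2 FPKM across wild type replicates 1 to 3 and at 3.31, 1.34 and 2.49 FPKM across knockout replicates 1 to 3. All knockout libraries were under the lowest wild type library, and replicate 2 was the lowest of them. The difference was 4.69-fold, with a log2 change of -1.89 (SE 0.21, adjusted p 0.00547), and it was called under every alternative setting run and with each library left out. Plin4 shares exon sequence with Hdgfl2 on the opposite strand, which stood at 9.54 to 10.9 FPKM for wild type, against 7.51 to 9.53 FPKM for knockout (log2 change -0.27, adjusted p 0.275). Hdgfl2 thus stood above Plin4 in each knockout library. Whether reads were counted by strand is not stated, so Hdgfl2 reads in the shared bases cannot be told apart from Plin4 reads.

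Plin2, the main coat of liver droplets, was the most abundant gene of the set. It was at 643, 662 and 672 FPKM across wild type replicates 1 to 3 and at 446, 298 and 577 FPKM across knockout replicates 1 to 3. The wild type libraries were nearly equal, with a coefficient of variation of 2.22%, whereas the knockout libraries spread over 31.7%. All knockout values were below all wild type values, but the log2 change of -0.63 (95% interval -1.16 to -0.10) had an unadjusted p of 0.0253 and an adjusted p of 0.197 and was not called.

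Plin5 and Plin3 were not called either. Plin5 was at 19.2, 15.5 and 18.0 FPKM for wild type, against 15.5, 10.9 and 18.6 FPKM for knockout replicates 1 to 3, with overlapping groups and a log2 change of -0.24 (95% interval -0.68 to 0.20). Plin3, a perilipin made in most cell types, was at 13.6, 16.7 and 17.1 FPKM for wild type, against 13.1, 14.7 and 13.7 FPKM for knockout replicates 1 to 3, with a log2 change of -0.17 (95% interval -0.46 to 0.11). Plin1, the adipocyte perilipin, was listed at 0 in wild type replicates 1 and 3 and knockout replicates 1 and 2, at 0.0312 FPKM in wild type replicate 2 and at 0.0133 FPKM in knockout replicate 3. These 2 values correspond to about 3.2 and 1.6 fragments, so a difference in Plin1 was not detectable at this depth.

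The make-up of the perilipin coat transcripts was dominated by Plin2 in both groups. Plin2 held 93.5%, 93.8% and 93.7% of the summed perilipin level in wild type and 93.3%, 91.7% and 94.3% across knockout replicates 1 to 3, with overlapping groups (exact two-sided permutation p = 0.7). Plin4 held 1.43% to 1.73% in wild type and 0.407% to 0.693% in knockout. The shares of Plin5 were 2.196% to 2.79% in wild type and 3.04% to 3.35% in knockout. The perilipin sum was 688, 705 and 717 FPKM for wild type, against 478, 325 and 612 FPKM for knockout replicates 1 to 3.

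Plin4 and Plin5 are neighbours. Plin4 spans positions 56100591 to 56109803 and Plin5 positions 56111601 to 56117596 of chromosome 17 (mm10, both on the minus strand), with 1797 bases between them, and Plin3 lies 159.9 kb beyond Plin5. The log2 ratio of Plin4 to Plin5 was -0.65 ± 0.18 in wild type and -2.72 ± 0.43 in knockout (SD, n = 3 each; exact two-sided permutation p = 0.1, the smallest possible). The ratio of Plin4 to Plin2 was -5.89 ± 0.14 in wild type and -7.58 ± 0.44 in knockout on the log2 scale, with the same p. Both ratios set Plin4, which was called, against a gene that was not. They restate the levels above and are not further support. Lrg1, a secreted glycoprotein gene on the far side of Plin5, was at 129 to 142 FPKM for wild type, against 145 to 317 FPKM for knockout and was not called (adjusted p 0.211).

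The upstream sequences of this pair are shown because the genes adjoin while Plin4 passed the test and Plin5 did not. The Plin4 window is chr17:56109804-56110032 and the Plin5 window chr17:56117597-56117798, both on the minus strand of GRCm38.p6 from RefSeq, with the same motifs in capitals.
Plin4: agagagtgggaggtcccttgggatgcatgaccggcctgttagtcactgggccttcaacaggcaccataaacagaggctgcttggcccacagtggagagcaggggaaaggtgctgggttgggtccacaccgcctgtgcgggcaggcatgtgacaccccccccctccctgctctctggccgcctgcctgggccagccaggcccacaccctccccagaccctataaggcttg
Plin5: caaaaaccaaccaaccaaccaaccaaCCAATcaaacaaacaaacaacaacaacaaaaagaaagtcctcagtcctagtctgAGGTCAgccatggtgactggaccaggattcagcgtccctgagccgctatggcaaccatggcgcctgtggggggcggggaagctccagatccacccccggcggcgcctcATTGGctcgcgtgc
Of the motifs searched, the Plin5 window held AGGTCA at -170 to -165 and CCAAT at -224 to -220 and -62 to -58. The Plin4 window held CCAAT at -18 to -14, in bases that GENCODE places in an exon and that are not printed. Among the other members, AGGTCA was found at -218 to -213 of Plin2 only, and windows were at hand for 9 of the 10 genes.

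Transcripts of the lipase and its inhibitor did not pass the test. Pnpla2 was at 46.8, 39.0 and 43.5 FPKM for wild type, against 40.0, 38.5 and 56.5 FPKM for knockout replicates 1 to 3, a log2 change of 0.04 (95% interval -0.34 to 0.43, adjusted p 0.929). Its sign turned without wild type replicate 2 (-0.03) and without knockout replicate 3 (-0.13). G0s2 was at 300.4, 285 and 369 FPKM for wild type, against 452, 148 and 222 FPKM for knockout replicates 1 to 3. The knockout libraries thus stood on both sides of the wild type range, with a coefficient of variation of 57.9% beside 14.0% in wild type. The log2 change of G0s2 was -0.36 (95% interval -1.21 to 0.48, adjusted p 0.653), and it was 0.00 without knockout replicate 2.

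The ratio of inhibitor to lipase was 6.42, 7.32 and 8.48 in wild type and 11.3, 3.84 and 3.93 across knockout replicates 1 to 3. Knockout replicate 1 lay above the wild type range and the other two below it. The mean difference in the log2 ratio was -0.41 with an exact two-sided permutation p of 0.4. Without knockout replicate 1 it was -0.92 and without knockout replicate 2 -0.14.

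**Figure D3:**
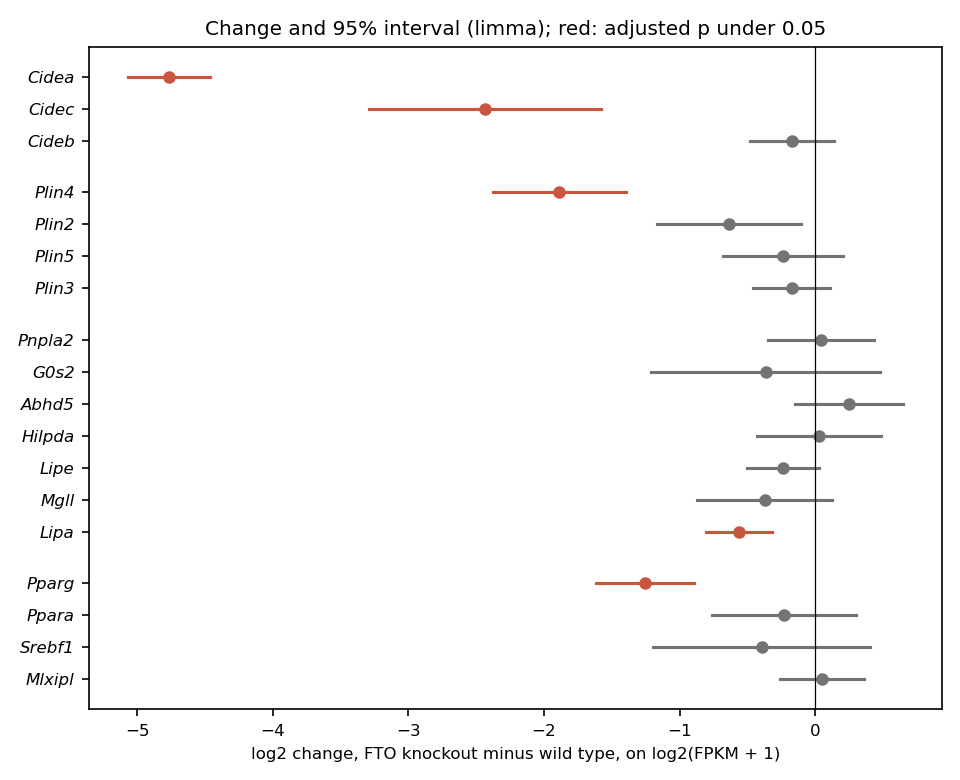
Log2 change, FTO knockout minus wild type on log2(FPKM + 1), with its 95% interval from limma, for the tested CIDE, perilipin and lipolysis genes and 4 regulators. Called genes are red: Cidea, Cidec, Plin4, Lipa and Pparg, whose intervals all lie below 0.

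Other genes of droplet formation and lipolysis were read from a list of 19, of which 17 were tested. Of these, 0 rose, 1 fell and 16 were not called, beside 1.11% higher and 1.65% lower among all tested genes. The median log2 change was 0. Knockout libraries lay below wild type without overlap for 5 of the 17 and above for 2, beside 13.0% and 11.5% of all tested genes. At an unadjusted p under 0.05 from limma, 4 were lower and 2 higher, beside 10% and 8.65% of all tested genes. The gene called lower was Lipa, the lysosomal acid lipase that digests droplet lipid taken up by lysosomes. It was at 68.2, 66.1 and 71.1 FPKM for wild type, against 44.2, 45.6 and 48.3 FPKM for knockout replicates 1 to 3, with a log2 change of -0.56 and an adjusted p of 0.0380. The groups were well apart, yet the call was lost without any 1 library other than wild type replicate 3, with adjusted p-values of 0.0784 without wild type replicate 1, 0.149 without wild type replicate 2, and 0.132, 0.0937 and 0.122 without knockout replicates 1, 2 and 3.

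The remaining lipolysis genes, named for their role after their values were seen, were not called. Abhd5, the coactivator of Pnpla2, was at 14.7 ± 2.43 FPKM for wild type, against 17.7 ± 3.37 FPKM for knockout (SD, n = 3 each). Hilpda, another inhibitor of Pnpla2, was at 2.22 ± 0.792 and 2.26 ± 0.548 FPKM. Lipe, the hormone-sensitive lipase of the next cut, was at 3.801 ± 0.188 and 3.09 ± 0.435 FPKM, with the knockout libraries below wild type (adjusted p 0.321). Mgll, which frees the last fatty acid, was at 48.2 ± 9.80 and 37.3 ± 10.2 FPKM.

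Genes that act when droplets form were not called. Bscl2, which encodes seipin of the droplet's budding site, was at 25.2, 25.8 and 29.8 FPKM for wild type, against 18.7, 18.5 and 16.9 FPKM for knockout replicates 1 to 3 (log2 change -0.55, adjusted p 0.0502). Fitm1, a fat storage-inducing membrane protein, was at 63.9, 80.6 and 101.0 FPKM for wild type, against 51.7, 43.4 and 46.6 FPKM for knockout replicates 1 to 3 (log2 change -0.76, adjusted p 0.0702). Acsl3, an acyl-CoA synthetase of early droplets, was at 8.19 ± 0.615 FPKM in wild type and higher, at 12.1 ± 1.65 FPKM, in knockout without being called (adjusted p 0.0815). The groups of these 3 genes did not overlap, as in 13.0% (knockout below) and 11.5% (knockout above) of all tested genes. Each of the 3 passed the threshold under at least 1 alternative. Fitm2, the relative of Fitm1, had overlapping groups and a log2 change of -0.21 (adjusted p 0.470). These 4 genes were named after their values were seen.

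Of 14 tested transcription regulators of lipid storage, 0 rose, 1 fell and 13 were not called (all tested genes: 1.11% higher, 1.65% lower). Pparg, the nuclear receptor that drives Cidea, Cidec and Plin4 in fat cells, was at 6.85, 10.1 and 10.3 FPKM for wild type, against 3.27, 2.98 and 3.26 FPKM for knockout replicates 1 to 3. The knockout libraries were nearly equal and all below wild type, with a log2 change of -1.25 and an adjusted p of 0.00723, called under every alternative run. The median log2 change of this list was -0.02.

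PPAR gamma target genes of fat storage were read from a list of 8, in which the glycerol kinase gene was matched by its current symbol Gk. It was drawn up with earlier results of these data known and is not independent evidence of a direction. Of its 6 tested genes 1 rose, 3 fell and 2 were not called, beside 1.11% higher and 1.65% lower among all tested genes. Their median log2 change was -1.24. Cd36, a fatty acid transporter, fell from 48.4 ± 2.94 to 9.52 ± 1.73 FPKM. Mogat1, which adds a second chain to monoacylglycerol, fell from 17.05 ± 6.10 to 0.589 ± 0.137 FPKM (SD, n = 3 each). Cfd, the adipsin gene, fell from 5.34 ± 1.10 to 0.951 ± 0.317 FPKM. Lpl, lipoprotein lipase, went the other way, at 1.13, 1.25 and 1.18 FPKM for wild type, against 2.195, 2.46 and 3.16 FPKM for knockout replicates 1 to 3 (adjusted p 0.0280). The call of Lpl was lost without wild type replicate 1 (0.0662) or 2 (0.105), without knockout replicate 2 (0.0672) or 3 (0.0828) and with no filter on low values (0.0687). The lipoprotein receptor gene Vldlr, named after its values were seen, missed the filter because its knockout level was low. It was at 0.994, 1.10 and 1.34 FPKM for wild type, against 0.202, 0.272 and 0.0840 FPKM for knockout replicates 1 to 3, and with no filter its log2 change was -0.86 (adjusted p 0.0223).

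**Figure D4:**
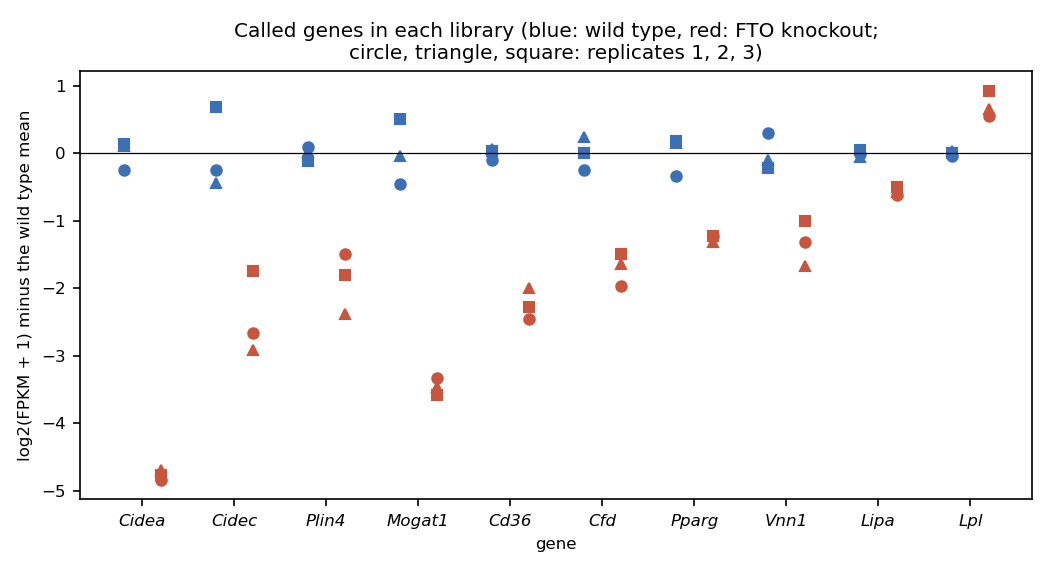
Level of 10 called genes in each library as log2(FPKM + 1) minus the wild type mean of the gene (vertical axis), with wild type in blue and FTO knockout in red. The 3 knockout libraries lie below 0 for 9 genes, furthest for Cidea, and above 0 for Lpl.

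PPAR alpha is the fasting receptor of liver and also acts on Plin2, Plin5 and G0s2. Of 12 tested PPAR alpha target genes, 1 fell, 0 rose and 11 missed the threshold, beside 1.65% lower and 1.11% higher among all tested genes. At an unadjusted p under 0.05, 5 were lower and 0 higher, beside 10% and 8.65% of all tested genes. The median log2 change was -0.31. The gene that fell was Vnn1, a pantetheinase, from 62.6 ± 12.4 to 24.4 ± 5.72 FPKM (SD, n = 3 each; adjusted p 0.0173). Its call was lost without wild type replicate 2 (0.0525), without knockout replicate 1 (0.0668) and with no filter (0.0576). Cyp4a14, a fatty acid hydroxylase named after its values were seen, was at 385, 300.4 and 340.2 FPKM for wild type, against 101.3, 63.5 and 257 FPKM for knockout replicates 1 to 3, and passed the threshold only without knockout replicate 3 (0.0201, beside 0.128 with all libraries).

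Knockout replicate 2 was the lowest knockout library for 6 of the 9 tested members: Cidec, Plin2, Plin4, Plin5, Pnpla2 and G0s2. It was the lowest for 10 of the 12 PPAR alpha target genes, for 12 of the 17 other droplet genes and for 41.2% of all tested genes. Wild type replicate 3 was the highest wild type library for 6 of the 9 members, beside 47.8% of all tested genes. These counts are descriptions of single libraries.

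Cidea, Cidec and Plin4 are also adipocyte genes, so the adipocyte markers are given beside them. Summed over 10 markers, the level was 23.3, 31.8 and 50.1 FPKM for wild type, against 16.9, 20.8 and 21.6 FPKM for knockout replicates 1 to 3. Fabp4, given below, was the largest part of this sum in each library, and its groups overlapped. Fabp4 and Cfd are also on the list of PPAR gamma target genes. Of the 4 markers that passed the filter 1 fell, Cfd, and 3 were not called, while 1.65% of all tested genes fell. Adipoq was listed at 0 in all knockout libraries, with 0.0825, 0.233 and 0.0248 FPKM across wild type replicates 1 to 3. Retn had 0.123, 0.217 and 0.162 FPKM in wild type and 0.0818, 0 and 0 in knockout, in the same order of replicates. Lep was at 0.00843 FPKM or less, Ucp1 at 0.0154 FPKM or less and Dio2 at 0 in all libraries. Lipe, also on the list, had 4.01, 3.75 and 3.64 FPKM in wild type and 2.60, 3.43 and 3.23 in knockout, without overlap. It was not called (adjusted p 0.321 from limma). Adrb3 stood higher in the knockout, and Cox8b and Fabp4 overlapped. Adrb3, a receptor for noradrenaline, had 1.30, 1.75 and 0.383 FPKM in wild type and 2.296, 2.02 and 2.32 in knockout, without overlap (unadjusted p 0.0271 and adjusted p 0.199 from limma). Cox8b, under the filter, had 0.177, 0.503 and 0.70 FPKM in wild type and 0.531, 1.98 and 1.1498 in knockout. Fabp4, a fatty acid binding protein, had 13.3, 18.8 and 39.9 FPKM in wild type and 10.8, 12.4 and 13.7 in knockout, with overlap, and was not called (adjusted p 0.280). Of the 3 skeletal muscle markers, Mylpf was present in all 6 libraries, at 2.33 to 5.61 FPKM in wild type and 1.98 to 7.86 FPKM in knockout. Ckm and Tnnt3 were listed at 0 except in knockout replicate 3, with 0.0183 and 0.165 FPKM.

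Kupffer cell, stellate cell and sinusoidal endothelial markers are given for the other resident cells. The summed level of 9 Kupffer cell markers was 56.5, 95.8 and 189 FPKM for wild type, against 217, 160.0 and 280.0 FPKM for knockout replicates 1 to 3. Of the 9, 0 were called by limma and 4 were higher at an unadjusted p under 0.05, as were 8.65% of all tested genes. The groups overlapped in this sum. For 6 stellate cell markers the sum was 64.3, 71.2 and 92.7 FPKM in wild type and 59.4, 82.1 and 88.2 in knockout. For 5 endothelial markers it was 25.5, 34.4 and 61.6 FPKM in wild type and 35.7, 42.4 and 48.8 in knockout. These sums overlapped too, and 0 markers of either list were called. At an unadjusted p under 0.05, 0 were higher in either list and 1 endothelial marker was lower. In tissue libraries fewer cells of a type and less RNA per cell cannot be told apart. The part of adipocytes and of these resident cells in the results was not tested.

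The tested genes whose profile over the 6 libraries was most like that of each called member were found by the root mean square difference of centred log2(FPKM + 1) values. For Cidea these were Cyp2b9 (0.64), Mogat1 (0.69) and Mt2 (0.90). For Cidec they were Cyp17a1 (0.35), Lgals1 (0.42) and Cdkn1a (0.45), and for Plin4 they were Zfp993 (0.18), Kbtbd11 (0.29) and Cyp2j9 (0.29). Cyp2b9 belongs to a family of near-identical copies and its value is uncertain. Predicted gene models were left out of this search.

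In wild type the order of levels was Plin2 at 659 ± 14.6 FPKM, G0s2 at 318 ± 44.7, Cideb at 234 ± 31.2, Pnpla2 at 43.1 ± 3.92, Cidec at 33.97 ± 15.6, Cidea at 33.4 ± 4.91, Plin5 at 17.6 ± 1.89, Plin3 at 15.8 ± 1.91 and Plin4 at 11.1 ± 0.827 FPKM (SD, n = 3 each), with Plin1 near 0. The ranges of Pnpla2 and Cidec, of Cidec and Cidea and of Plin5 and Plin3 overlapped, so these neighbours were not ordered beyond their spread. In knockout the order was Plin2 at 440.1 ± 139.7 FPKM, G0s2 at 274 ± 158, Cideb at 207 ± 6.29, Pnpla2 at 45.0 ± 9.95, Plin5 at 15.005 ± 3.89, Plin3 at 13.8 ± 0.848, Cidec at 5.47 ± 2.91, Plin4 at 2.38 ± 0.992 and Cidea at 0.257 ± 0.0596 FPKM. Cidec and Cidea, which stood above Plin5 and Plin3 in wild type, were below both in knockout. There the ranges of Plin2 and G0s2, of G0s2 and Cideb and of Plin5 and Plin3 overlapped.

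**Figure D5:**
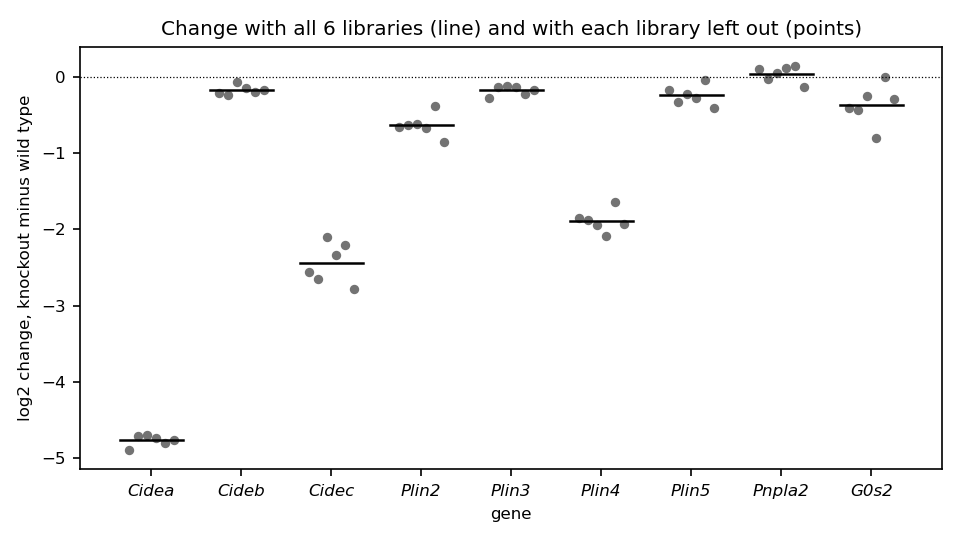
Log2 change, knockout minus wild type on log2(FPKM + 1), of the 9 tested members with all 6 libraries (line) and with each library left out in turn (points). The points of Cidea, Cidec and Plin4 all stay below 0, and those of Pnpla2 and G0s2 fall on both sides of 0.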

How the data were processed

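RNA of 6 hepatic tissue libraries was analysed from the deposited table of FPKM values, which the authors made from their reads. TopHat2 2.1.0, HTSeq, Cufflinks 2.2.1 and mm10 are named, without roles, per the submitters' processing notes. No release of the gene annotation is named there. Groups came from the genotype labels, and replicate numbers follow sample order and pair no libraries. Symbols and positions came from GENCODE M21, and 24807 of 25690 identifiers matched. Depth was inferred from the low values of 964 genes with a single transcript, reading values that gave 25000000 to 50000000 fragments as 1 fragment, a window taken from an earlier look at these values. Fragment numbers per gene use the longest coding transcript and are approximate.

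limma 3.58.1 in R 4.3.3 (intensity trend, two-sided) was fitted on log2(FPKM + 1) for 10405 genes whose mean reached 1 FPKM, with Benjamini-Hochberg adjustment over all of them. Alternatives were leaving out each library, a pseudocount of 0.1, testing all genes without the filter, robust variance moderation, and scaling by quantiles or by median ratio size factors. On simulated data for 10405 genes, 78 of 100 genes given a log2 change of 1 were called and 98 of 100 given one of 2, with 13 false calls. The changed genes were drawn from those with a mean log2(FPKM + 1) above 2. The noise was normal and independent, with each gene's spread within groups. These recoveries therefore do not cover lower genes or differences that whole libraries share. The named genes were Fto, the members, the called genes of each list and the 3 nearest profiles per called member; every other gene named (neighbouring genes, cell type markers and further genes of the lists) was chosen after its values were seen. The members and lists were chosen with earlier results of these data known. Of 95 list genes 94 were matched, and Acta1 was not analysed here. Lists were described by counts, with no set test.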

Additional observations from a re-analysis of the deposited data

How the results depend on the processing

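Of 99 values of the tested members under the 11 alternatives, 93 kept their direction and their side of the threshold, 3 lost a call (Cidec, given above) and 3 changed sign, namely Pnpla2 without wild type replicate 2 (-0.03) and knockout replicate 3 (-0.13) and G0s2, which ran from -0.80 to 0.00103 with a library left out and turned without knockout replicate 2. None of these sign changes was of a called gene. Cidea and Plin4 were called in all 11. The count of members called lower was 2 or 3 in every alternative, and 0 were called higher. Over all genes the lower calls ran from 49 without knockout replicate 3 to 240 without wild type replicate 3, of 10374 tested in each. Hilpda, which was not called, changed sign without wild type replicate 1 (-0.10) or 2 (-0.04) and knockout replicate 3 (-0.09) and reached 0.22 without wild type replicate 3.

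The count of other lipid droplet genes called was 1, and it was 2 with median ratio size factors, 4 with quantile normalization, 2 with robust empirical Bayes and 0 to 2 with a library left out. Bscl2 and Fitm1 were the further lower genes and Acsl3 the higher one. The count of PPAR alpha targets called was 1, and it was 0 with no filter and 0 to 2 with a library left out. The difference in the Plin2 share of perilipin transcripts was -0.56 percentage points and ran from -1.16 to 0.14 with a library left out. The cause of these changes was not tested. The counts of called list genes are to be read beside those over all genes, which also moved. Over all genes 115 were higher and 172 lower, and with no filter 87 and 93, where 18965 genes were tested. With median ratio size factors these counts were 137 and 204, with quantile normalization 180 and 225, and with robust empirical Bayes 127 and 192. With a pseudocount of 0.1 they were 117 and 178. Without wild type replicates 1, 2 and 3 they were 88 and 149, 62 and 53, and 312 and 240. Without knockout replicates 1, 2 and 3 they were 64 and 65, 91 and 115, and 43 and 49. No paired analysis was possible because the labels give no replicate numbers. Low levels, and so few fragments, limit the values of Cidea in knockout and of Plin1 in all libraries.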
